A study of Mus musculus with 12 samples.

Results

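The 10 genes described here mark cortical interneurons, and they were followed through RNA-Seq of brain tissue, RNA-Seq of ribosomes pulled down from excitatory neurons, and ribosome profiling of the same tissue. The rule names the genes and uses no measured value, although it was written with earlier results of these data known. The genes are *Gad1*, *Gad2*, *Sst*, *Pvalb*, *Vip*, *Calb2*, *Npy*, *Lhx6*, *Erbb4* and *Cck*. All 10 were present among the 23352 genes counted on exons and among the 20504 genes counted on coding sequence (CDS). Exon counts served for the pull-down and CDS counts for translation efficiency and drug treatment.

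The mice were adults of 3 months that carried Camk2a-cre and RiboTag, an allele of the ribosomal protein gene *Rpl22* that gains an HA epitope after Cre recombination. The Camk2a promoter drives Cre in forebrain excitatory neurons, so in every mouse, controls included, the tag was confined by design to these cells, while footprints and input RNA came from all cells of the tissue. Vehicle was given to mice A and B (untreated in the labels), whereas for mice C and D the gavage held AZD-8055, which inhibits the mTOR kinase at its ATP site, at 100 mg/kg, 1 h before the frontal lobe was collected, and each of these 4 mice gave a poly(A)-selected RNA-Seq library and a ribosome footprint library. Mice E and F, untreated, each gave RNA-Seq of the whole homogenate (input) and of the anti-HA immunoprecipitate (IP). Every group therefore held 2 mice. The tests estimate the spread from these few animals with help from all genes. Their main fits do not pair the libraries of a mouse.

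Interneurons are the local inhibitory neurons of the cortex. They make GABA with the glutamate decarboxylases encoded by *Gad1* and *Gad2*, and fall into classes marked by the calcium-binding proteins parvalbumin (*Pvalb*) and calretinin (*Calb2*) and by the neuropeptides somatostatin (*Sst*), vasoactive intestinal peptide (*Vip*), neuropeptide Y (*Npy*) and cholecystokinin (*Cck*). *Lhx6* encodes a LIM-homeodomain transcription factor of interneurons born in the medial ganglionic eminence, and *Erbb4* a receptor tyrosine kinase for neuregulins. Most of these genes are not private to cortical interneurons. *Gad1* and *Gad2* are also used by striatal projection neurons, calretinin marks many cells of the olfactory bulb, and *Cck* is transcribed in cortical pyramidal cells.

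Peptide genes of this kind are textbook targets of the transcription factor CREB, and the windows below show the CREB-type motif that a search found in 3 of the peptide genes, whose RNA moved in opposite directions in the pull-down. The search covered TGACGTCA, TGACGTC (which TGACGTCA contains) and TGACGCA on both strands of the window from 250 bases before to 50 bases after each RefSeq start (GRCm38.p6), where 9 of the 10 genes had a window. The motif is in capitals, each sequence reads 5′ to 3′ on the strand of the gene, and the motifs were chosen after the data had been seen.
Sst: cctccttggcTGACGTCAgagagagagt
Vip: atcactactgTGACGTCtttcggggag
Cck: cctgctggacTGCGTCAgcactgggta
The *Sst* stretch lies at chr16:23890875-23890902 (minus strand), that of *Vip* at chr10:5639129-5639155 (plus strand) and that of *Cck* at chr9:121495727-121495753 (minus strand), where TGACGCA is read on the opposite strand. TGACGTCA was present in 1.79% of 32851 such windows, TGACGTC in 3.21% and TGACGCA in 2.12%. A match describes the letters and not a binding site.

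The exon libraries held between 16796999 and 27878212 counted reads, the CDS libraries of RNA between 9309496 and 15585831, and the footprint libraries between 3503873 (mouse C) and 9259938 (mouse A). Together the 10 genes took 0.143 to 0.149% of CDS reads in the RNA of mice A to D and 0.240 to 0.256% of their footprints. The excitatory neuron markers checked the pull-down, and their summed level was higher in the IP by 1.01 in mouse E and 1.02 in mouse F on the log2 scale. Reads carried no molecular identifiers, so the counting intervals given here cover counting error only.

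The first comparison set the level of each interneuron transcript in the IP against the input. The series holds no IP from mice without the tag, so reads from tagged ribosomes and carry-over cannot be told apart. Shares of input are ratios of normalised counts and not of RNA amounts. Of the 10 genes, 8 were lower in the IP than in the input and 1 was higher, while *Calb2* was not called. Across the 13254 genes tested, 21.8% were lower and 11.7% higher by the same rule, which required an adjusted p under 0.05 in edgeR's quasi-likelihood test and a fold change over 2. The median log2 difference was -2.21 for the 10 genes and -0.03 for all genes. Scaling by total counts moved the median of all genes by -0.28 and gave 774 higher and 3653 lower genes, against 1545 and 2888, and all 9 calls among the 10 genes held. In bulk tissue, fewer cells of a type and less RNA per cell cannot be told apart.

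For the enzymes of GABA synthesis, the input and IP of mouse E held 7517 and 2140 normalised reads (exon counts divided by size factors) of *Gad1*, and those of mouse F 8600 and 1695. *Gad2* gave 4553 and 1213 in mouse E and 5043 and 945 in mouse F. Both IP libraries were thus below both inputs for each gene. The IP retained 28.5% and 19.7% of the input level of *Gad1*, and 26.6% and 18.7% of that of *Gad2*, in mice E and F. The quasi-likelihood test of edgeR, with p adjusted by Benjamini-Hochberg over all genes, gave the log2 differences as -2.19 (SE 0.14, adjusted p = 8.26e-05) for *Gad1* and -2.27 (SE 0.14, adjusted p = 8.08e-05) for *Gad2*.

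All 3 peptide genes called lower were below the input in both mice. The counts of *Sst*, which marks dendrite-targeting interneurons, were 3115 in input and 949 in IP of mouse E, and 2541 and 603 in mouse F, or 30.5% and 23.7% of input. *Npy* had 1345 and 273 in mouse E, and 1173 and 206 in mouse F, or 20.3% and 17.6%. *Vip*, which marks a class of interneurons that mainly contact other interneurons, had 683 and 112 in mouse E and 760 and 111 in mouse F, or 16.4% and 14.6% of input. The log2 differences were -1.99 (SE 0.22) for *Sst*, -2.51 (SE 0.16) for *Npy* and -2.81 (SE 0.13) for *Vip*, with adjusted p of 0.000429, 8.35e-05 and 6.09e-05 in edgeR's test.

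*Pvalb*, the marker of fast-spiking basket and chandelier cells, was the least depleted of the 8, with 698 reads in input and 264 in IP of mouse E and 722 and 294 in mouse F. It retained 37.8% and 40.7% of input, a log2 difference of -1.46 (SE 0.12, adjusted p = 0.00014 by edgeR). *Lhx6* gave 485 and 129 in mouse E and 428 and 83.0 in mouse F, a log2 difference of -2.23 (SE 0.23, adjusted p = 0.000301). The differences among these genes were not tested.

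*Erbb4* was close to absent from the IP. The raw exon counts were 382 in input and 4 in IP of mouse E, and 455 and 2 in mouse F. Nearly all of them lay in the CDS. The ratio of exon to CDS reads was 1.04 and 1.06 in the inputs of mice E and F, against 1.52 and 1.55 for the median gene. After normalisation the IP held 1.54% of the input level in mouse E (95% exact counting interval 0.416 to 3.96%) and 0.720% in mouse F (0.0869 to 2.62%). Its adjusted p in edgeR's test was 6.09e-05, and with so few IP reads the size of the fitted difference depends on the prior count. In exon reads the IP shares of the other genes called lower lay between 14.6 and 40.7%, far above both intervals. In CDS reads alone those shares went down to 6.51% (*Gad2*, mouse F), against 1.62% and 1.09% for *Erbb4* in mice E and F. Among the 13248 genes tested that had reads in all 4 libraries, its mean enrichment was the lowest, which rests on those 4 and 2 reads.

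*Cck* went the other way. The normalised counts were 4817 in input and 24371 in IP of mouse E, and 4853 and 25131 in mouse F, so that the IP held 506% and 518% of the input level. The gene stood at percentile 99.95 of enrichment, and its log2 difference was 2.24 (SE 0.082, adjusted p = 4.86e-05 by edgeR). Its 2 mice differed less than those of any other member, with log2 values of 2.34 and 2.37.

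*Calb2* split by mouse. In mouse E the level was 373 in input and 134 in IP, and in mouse F it was 662 and 628. The IP thus held 36.0% of input in mouse E (95% exact counting interval 28.7 to 44.9%) and 94.8% in mouse F (85.2 to 105.5%). The gap between the mice exceeded that of 99.0% of all genes in size. With both mice the log2 difference was -0.55 (SE 0.63, adjusted p = 0.462 by edgeR). Without mouse F it was -1.58 (adjusted p = 9.46e-05) and without mouse E it was -0.16. Each of these fits holds 1 library a group, with the spread taken from the tissue RNA of mice A to D, so that p assumes that the lone libraries vary like those. With both mice and the mouse as a block it was -0.71 (SE 0.145, adjusted p = 1.57e-05 by edgeR), still under 2-fold. The spread in that fit leans on all genes, while the log2 values of *Calb2* were -1.47 in mouse E and -0.08 in mouse F. Its p therefore does not measure how far the 2 mice differed.

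In IP over input, the markers of olfactory bulb cells moved with *Calb2*. The summed level of the 4 markers (*Th*, *Doc2g*, *Eomes* and *Cdhr1*) was 761 in input and 417 in IP of mouse E, but 1390 and 1401 in mouse F, which are log2 differences of -0.87 and 0.01. *Eomes*, a transcription factor of mitral and tufted cells in the bulb, had log2 values of -2.13 in mouse E and 0.11 in mouse F. Tissue RNA of the 6 mice held between 482 (mouse B) and 1404 (mouse F) of the summed markers, and there they did not move with *Calb2*, which was highest in mouse B. The part of olfactory bulb tissue in the *Calb2* values was not tested.

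**Figure D1:**
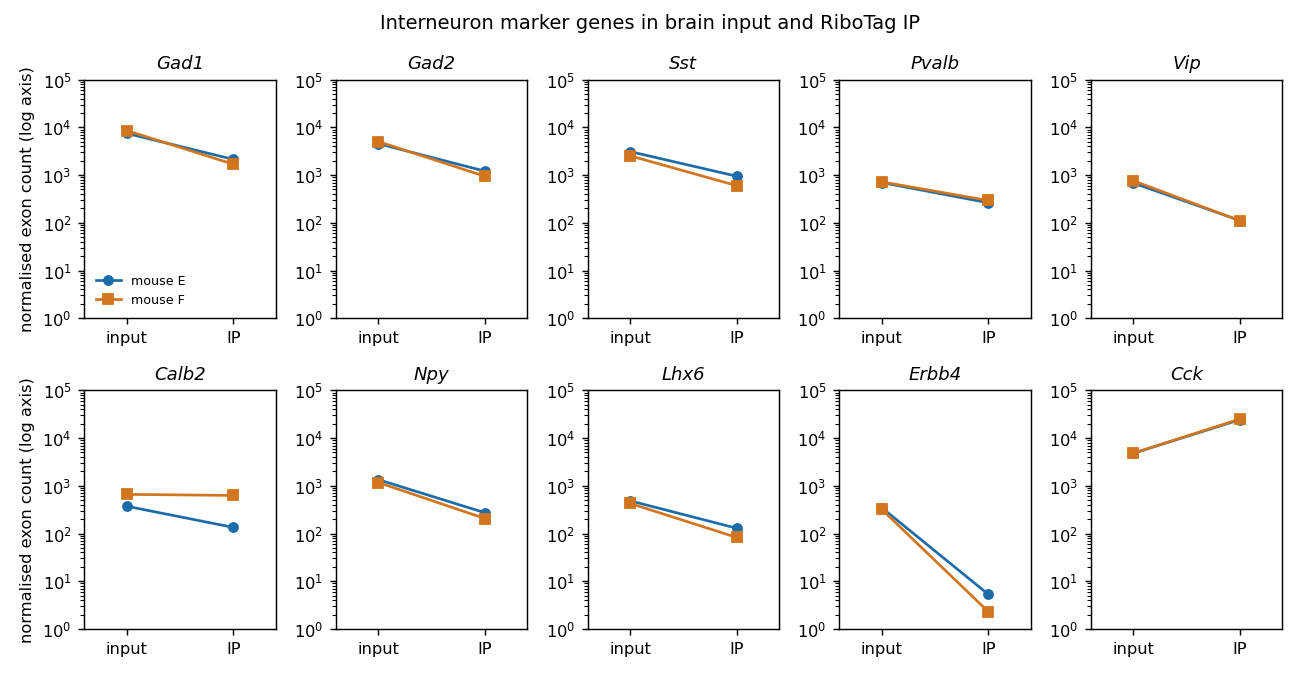
Normalised exon counts (log axis) of the 10 genes in input and IP of mouse E (blue circles) and mouse F (orange squares), with a line joining the libraries of a mouse. *Cck* climbs from 4817 to 24371 in mouse E, *Erbb4* drops to 5.33 and 2.31, and the lines of *Calb2* diverge.

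The other cell types gave a range for these values. The median log2 difference was -3.34 for the 4 astrocyte markers, -3.17 for the 4 oligodendrocyte markers, -3.67 for the 2 markers of oligodendrocyte precursors, -3.35 for the 3 microglial markers and -3.58 for the 3 endothelial markers. Of the 8 excitatory neuron markers 4 were called higher and 0 lower, with a median of 0.98. Of the 7 markers of striatal projection neurons, which also express *Gad1* and *Gad2*, 0 were higher and 1 lower, with a median of -0.27, and their summed level was higher in the IP by 0.44 and 0.17. None of these groups was compared with the interneuron genes by a test.

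Wider lists of interneuron genes were mostly lower in the IP as well. Of 14 interneuron transcription factors tested, 10 were lower and 0 higher (median -1.67). *Prox1* at -4.33 and *Sox6*, of the medial ganglionic eminence lineage, at -3.21 were lowest, while *Dlx6* at -0.28 and *Satb1* at -0.31 were highest and did not pass. The oligodendrocyte precursor markers *Pdgfra* and *Cspg4* gave -4.03 and -3.32. The part of such cells in the *Prox1* and *Sox6* values was not tested. Of 14 synaptic, channel and receptor genes 10 were lower and 0 higher (median -1.68). *Nos1*, the neuronal nitric oxide synthase, gave -3.37 and *Htr3a*, an ionotropic serotonin receptor, -3.02, whereas *Cnr1*, the cannabinoid receptor of CCK basket cells, gave -0.62 and *Rab3b* -0.57, both under 2-fold.

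Of 13 other marker genes, most of them for peptides and secreted proteins, 7 were lower and 1 higher (median -1.91). The list also holds *Lamp5*, *Calb1* and *Sncg*, whose products are not secreted. *Lamp5*, a marker of neurogliaform cells that cortical pyramidal cells also use, was called higher, at 1.38, and *Calb1* (calbindin) gave 0.73, under 2-fold. *Sncg* at -2.85 and *Ndnf* at -2.82 were lowest. Of 10 receptors of the peptides 2 were lower and 1 higher (median 0.08), shares near the 21.8% and 11.7% of all genes, with somatostatin receptors at both ends. The difference from the other lists was not tested. *Sstr3* gave 1.31 and *Sstr2* 0.92 (under 2-fold), against -1.79 for *Sstr4*, and the PACAP receptor gene *Adcyap1r1* gave -1.13.

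Of 7 ligands of *Erbb4* and partner receptors 4 were lower and 0 higher (median -1.27). The receptors *Egfr* at -4.33 and *Erbb3* at -3.82, both also expressed by glia, were lowest, and the ligand genes *Nrg3* at -0.00059 and *Nrg1* at -0.53 were highest and not called. Of the 5 propeptide processing enzymes, the prohormone convertase gene *Pcsk1* was lower at -1.11 and *Scg5*, which encodes a chaperone of the convertase made from *Pcsk2*, was higher at 1.35. *Pcsk2* itself gave 0.80, under 2-fold, and the amidating enzyme gene *Pam* gave 0.06.

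The 2 count tables gave different sizes, in both directions. In the edgeR fits *Gad1*, *Gad2*, *Vip* and *Lhx6* lay lower in CDS reads than in exon reads. The other genes lay higher in CDS reads, such as *Cck* with 2.69 against 2.24. Each table was scaled on its own genes, so these sizes are relative to the shift of most genes between the tables. The ratio of exon to CDS reads of *Cck* hardly moved from input to IP (log2 shift 0.013), against 0.33 for the median gene. The higher value in CDS reads is thus no gain of CDS reads over other exon reads of *Cck*. *Gad2* fell short most in CDS reads, with log2 IP over input of -3.38 in mouse E and -3.94 in mouse F, against -1.91 and -2.42 in exon reads. Its ratio of exon to CDS reads was 3.73 and 3.97 in the inputs but 14.02 and 16.4 in the IPs, a log2 shift of 1.98 that lay at percentile 97.0 of 12085 genes. *Vip* shifted alike but less, at percentile 83.1, with ratios of 2.19 and 2.20 in input and 5.25 and 3.84 in IP. Its IP ratios rest on 16 and 25 CDS reads in mice E and F. *Sst* did not show this, as its ratio stayed between 1.06 and 1.09 in all 4 libraries. The median gene went from 1.52 and 1.55 in the inputs to 1.93 and 2.08 in the IPs. Fitted on exon reads outside CDS, a choice made after the data had been seen, *Gad2* gave -2.43 and *Vip* -2.81, so the direction held in all 3 counts.

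**Figure D2:**
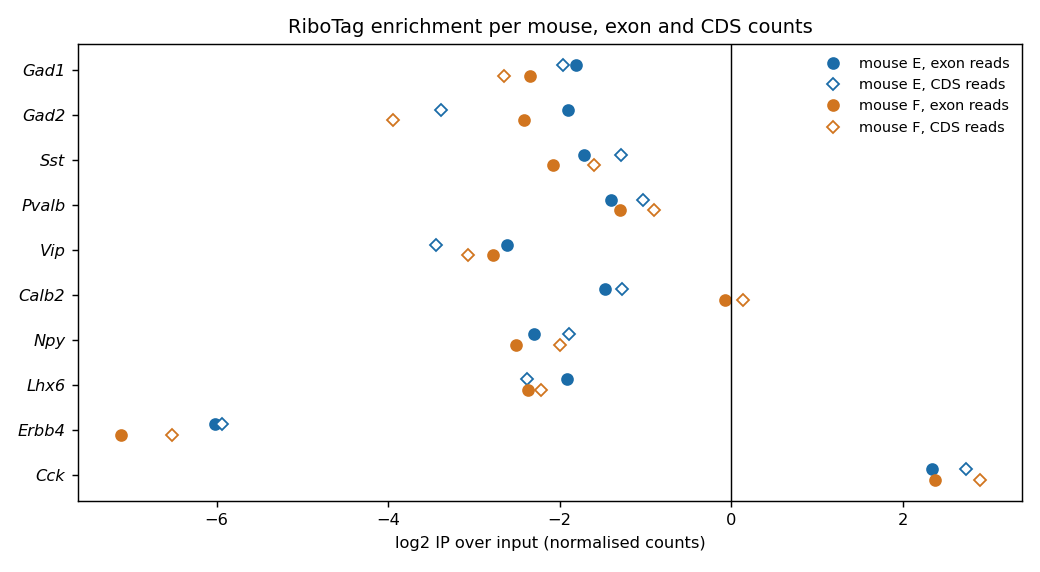
Log2 IP over input per mouse (E blue, F orange) from exon counts (filled circles) and CDS counts (open diamonds). *Gad2* lies lower in CDS counts (-3.38 and -3.94) than in exon counts (-1.91 and -2.42), and *Calb2* is the gene whose mice lie apart around 0.

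The tissue RNA of all 6 mice showed how far the levels varied before any pull-down. For 8 of the genes the coefficient of variation over mice was between 5.97% (*Npy*) and 16.3% (*Pvalb*), against 10.0% for the median gene. *Calb2* and *Erbb4* stood apart, with 35.2% and 66.3%. Normalised over the 6 libraries, the exon counts of *Calb2* were 372 and 669 in mice E and F, 872 and 1214 in A and B, and 833 and 742 in C and D. The levels of mouse B and mouse E were the ends of this range, which spanned 3.26-fold.

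*Erbb4* separated by experiment. Its level was 346 and 324 in the inputs of mice E and F, but 74.4, 105, 149 and 95.8 in mice A, B, C and D. The log2 ratio of the mean level in mice E and F to that in mice A to D was 1.66, larger than for 99.9% of 13396 genes. Mice A to D had a gavage of vehicle or drug and mice E and F were untreated, so the set of mice and its handling cannot be told apart. *Gad1*, *Gad2*, *Sst*, *Pvalb* and *Lhx6* were lower in mice E and F by 0.32 to 0.37 on the same scale, at percentiles between 6.62 and 9.49. In CDS reads the other 4 kept this direction, but *Gad2* gave 0.054. The summed striatal markers were lower there too, with 15185 and 13493 against 23560 to 28309 in mice A to D, and the part of striatal tissue in these values was not tested.

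**Figure D3:**
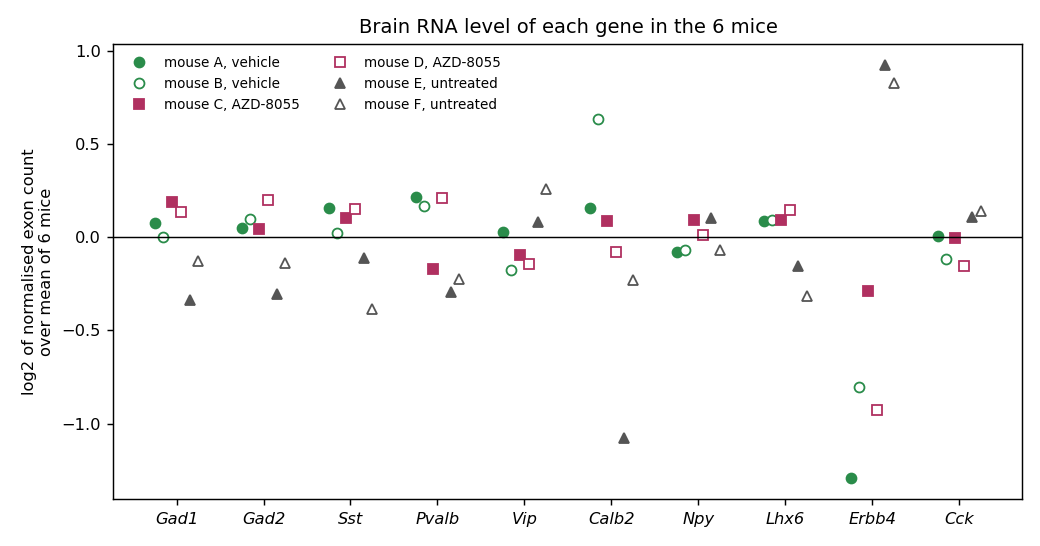
Log2 ratio of each gene's normalised exon count to its mean over the 6 mice, for vehicle (green circles), AZD-8055 (red squares) and untreated mice (grey triangles). *Erbb4* is high in mice E and F alone (346 and 324), and *Calb2* spans 372 in mouse E to 1214 in mouse B.

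Translation efficiency (TE), the ratio of footprints to RNA on CDS after size-factor normalisation, was above the median of all genes for 9 of the 10 genes in vehicle-treated mice. The median log2 TE of the 10 was 0.56, against 0.016 for 10882 genes with at least 75 reads of each kind. Tested against the scaling of all genes with edgeR's quasi-likelihood test and a 2-fold limit, 3 were higher and 0 lower, where 13.2% of 11797 genes were higher and 17.6% lower. Footprints came from all cells, so these values describe the tissue and not a cell type.

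*Erbb4* had the highest TE of the set. Its normalised CDS reads were 42.2 and 61.7 in the RNA of mice A and B but 680 and 664 in their footprints, from raw RNA counts of 57 and 90. This gave log2 TEs of 4.01 and 3.43, at percentile 99.9, and footprints exceeded RNA by 3.72 (SE 0.17, adjusted p = 2.26e-11 by edgeR). Footprint levels were even across all 4 mice, at 664 to 763, while RNA levels ran from 42.2 to 91.0. The low RNA level is the denominator here, and RNA of this gene was higher in mice E and F, for which no footprints were made. The part of RNA recovery in this TE was not tested.

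Of the decarboxylase genes, *Gad2* had the higher TE. *Gad2* had 703 and 698 normalised reads in RNA and 3337 and 3102 in footprints of mice A and B, with log2 TEs of 2.25 and 2.15, at percentile 98.8. *Gad1* had 3394 and 3129 in RNA and 6652 and 5951 in footprints, with log2 TEs of 0.97 and 0.93. In all 4 mice the TE of *Gad2* was above that of *Gad1*, a difference that was not tested. *Gad2* also had the larger share of its exon reads outside CDS, with exon to CDS ratios of 4.69 to 5.37 against 1.79 to 1.89. The difference of footprints from RNA was 2.24 (SE 0.071, adjusted p = 5.75e-13) for *Gad2* and 0.99 (SE 0.066, adjusted p = 1.59e-09) for *Gad1*, just under 2-fold.

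The peptide genes ranged from even to moderately high. *Vip* gave log2 TEs of 0.94 and 1.04 and was called at 1.04 (SE 0.14, adjusted p = 4.33e-06 by edgeR), just over the 2-fold limit. *Cck* gave 0.52 and 0.55, and *Npy* gave 0.53 and 0.26. *Sst* was the gene below the median, with -0.16 and -0.076, and its test gave -0.076 (adjusted p = 0.388). The 3 genes with a CREB-type motif shown above thus spread from *Sst* to *Vip*.

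*Calb2* gave log2 TEs of 0.63 and 0.55, *Pvalb* 0.35 and 0.52, and *Lhx6* 0.34 and 0.29. *Lhx6* rested on the fewest footprints, with 40 to 127 raw reads per library, and did not pass at any fold (0.37, adjusted p = 0.0766 by edgeR). Without the 2-fold limit 8 of the 10 genes were higher, where 73.8% of all genes passed in either direction. *Vip* fell under the limit without mouse B (0.96) and *Gad1* passed it without mouse A (1.00), in fits where the treated mice supply the spread for the lone vehicle mouse.

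**Figure D4:**
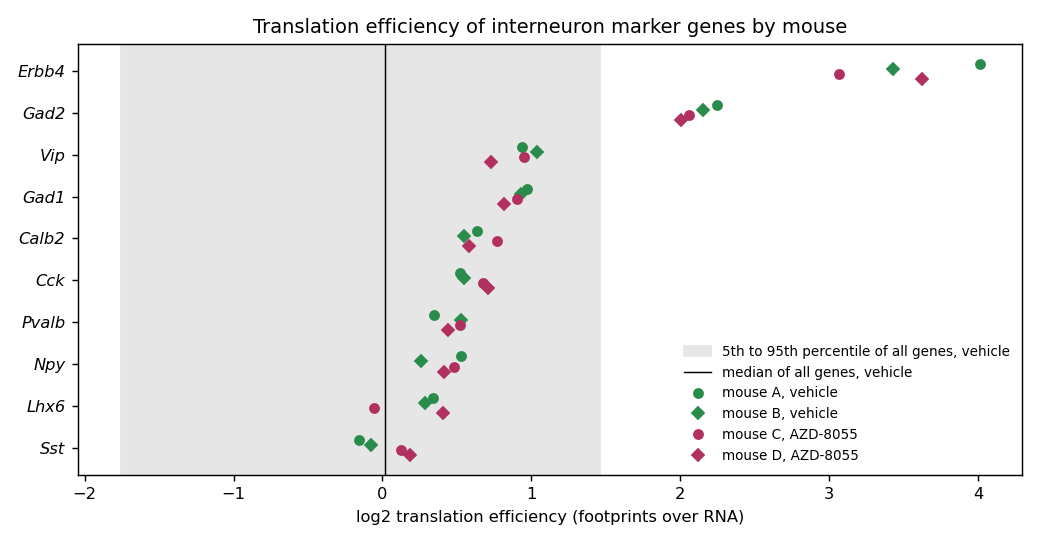
Log2 TE of each gene in the 4 mice with footprints, vehicle in green and AZD-8055 in red, over the 5th to 95th percentile of all genes (grey band, -1.76 to 1.46) and their median (line). *Erbb4* (3.07 to 4.01) and *Gad2* (2.01 to 2.25) lie outside the band in every mouse.

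The wider lists are read against the 13.2% of all genes that were higher and the 17.6% that were lower. Footprints exceeded RNA for 3 of 13 interneuron transcription factors tested and were lower for 2, and for 4 and 2 of the 14 synaptic, channel and receptor genes. On the list of mostly peptide and secreted genes 4 of 13 were higher and 0 lower. *Ndnf*, which encodes a secreted factor of neurogliaform cells, was among them at 2.08, and so was *Calb1*, whose product is not secreted. The peptide receptors had 3 of 10 higher, the *Erbb4* ligands and partners 1 of 7, and the processing enzymes 1 of 5, with 0 lower in each, and the last 2 counts are near the share of all genes.

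The last comparison asked whether 1 h of mTOR inhibition moved these genes. By edgeR's quasi-likelihood test 0 of the 10 were called in RNA, in footprints or in TE, and DESeq2 also called 0 in each. Among all genes 0.0575% were higher and 0.0903% lower in RNA, 0.0468% and 0.982% in footprints, and 0.00848% and 0.297% in TE. At an unadjusted p under 0.05 the genes were *Gad1* and *Calb2* in RNA (2 of 10, against 8.24% of all genes), *Sst* and *Calb2* in footprints (2 of 10, against 12.8%) and *Sst* in TE (1 of 10, against 6.75%). A missed threshold with 2 mice a group does not show that levels were equal.

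*Sst* had the largest difference in footprints among the genes that were higher. Its normalised footprints were 1945 and 1874 in mice A and B and 2277 and 2484 in mice C and D, while its RNA was 2174 and 1976 against 2089 and 2186. The footprint groups did not overlap and the RNA groups did. Both drug-treated mice were above both vehicle-treated mice in footprints for 3 of the 10 genes (*Sst*, *Erbb4* and *Cck*), against 20.2% of all genes. The log2 difference was 0.32 in footprints (SE 0.081, adjusted p = 0.131 by edgeR) and 0.28 in TE (SE 0.11, adjusted p = 0.580, or 0.215 with the mouse as a block). Without mouse C the footprint difference was 0.40 (adjusted p = 0.000322), in a fit with 1 treated library that is assumed to vary like the vehicle libraries, and in which calls over all genes went from 5 higher and 105 lower to 355 and 482.

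*Calb2* had the largest decrease. Its RNA was 369 and 533 in mice A and B and 339 and 303 in mice C and D, and its footprints were 572 and 780 against 579 and 452. The groups overlapped in footprints, and mouse B was the highest in RNA and in footprints. The log2 difference was -0.52 in RNA (SE 0.13, adjusted p = 0.208 by edgeR) and -0.39 in footprints (SE 0.17, adjusted p = 0.377), and 0.11 in TE (SE 0.25, adjusted p = 0.973). The RNA difference was -0.76 without mouse A (adjusted p = 0.00361) and -0.21 without mouse B, and the footprint difference was -0.53 without mouse C (adjusted p = 0.000421). In these fits too, 1 group holds a lone library and the other group alone supplies the spread. The summed olfactory bulb markers were 509, 482, 1382 and 563 in the RNA of mice A, B, C and D, and their part in these values was not tested.

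The enzymes of GABA synthesis moved by little. *Gad1* RNA was 3394 and 3129 in vehicle-treated mice and 3741 and 3641 in treated mice, a log2 difference of 0.16 (SE 0.065, adjusted p = 0.545 by edgeR), and *Gad2* gave 0.11 (SE 0.069). In footprints the differences were 0.092 (SE 0.062) for *Gad1* and -0.041 (SE 0.067) for *Gad2*, and in TE -0.086 (SE 0.092) and -0.17 (SE 0.098). The summed striatal markers, whose cells also use both genes, were 23870 and 23560 in vehicle-treated mice and 27234 and 28309 in treated mice. Their part in the *Gad1* value was not tested.

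For the rest, *Erbb4* had the widest error of the 10 genes in RNA. Its RNA was 42.2 and 61.7 in vehicle-treated and 91.0 and 56.9 in treated mice, a log2 difference of 0.47 (SE 0.24, adjusted p = 0.658), and its TE differed by -0.37 (SE 0.25, adjusted p = 0.840). *Pvalb*, *Vip*, *Npy*, *Lhx6* and *Cck* differed by -0.13 to 0.097 in RNA, by -0.14 to 0.16 in footprints and by -0.16 to 0.16 in TE. *Cck* gave 0.13 in footprints (SE 0.067) and 0.16 in TE (SE 0.10). None of the genes on the wider lists of interneuron, peptide receptor, *Erbb4* ligand or processing genes was called in RNA, footprints or TE.

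**Figure D5:**
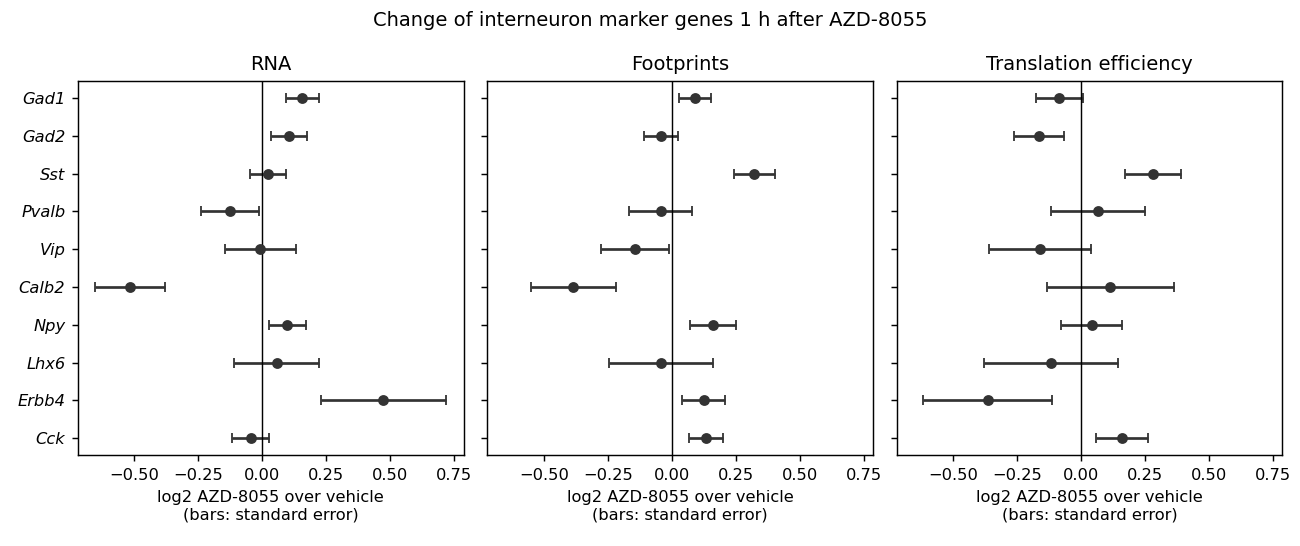
Log2 difference between AZD-8055 and vehicle for RNA, footprints and TE of the 10 genes, with bars of 1 standard error derived from the F of the edgeR test. *Sst* footprints (0.32) and *Calb2* RNA (-0.52) lie farthest from 0 relative to their errors.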

How the data were processed

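Poly(A)-selected RNA-Seq and ligation-free ribosome profiling libraries were analysed from the raw counts per gene that the authors deposited, on exons for 8 libraries and on CDS for 12. Per the submitters' processing notes and methods, reads on rRNA were removed with Bowtie2, the rest were aligned with TopHat2 to mm10 and counted with HTSeq, without pooling. The annotation is not given in the sources used here. Strict counting on overlapping or spliced features can shift exon and CDS reads of one gene. Symbols turned into dates (27, with 0.35% of counts) were kept as separate genes.

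Levels, TE and enrichment were ratios of counts divided by DESeq2 1.42.0 size factors. Tests used edgeR 4.0.16 in R 4.3.3 (TMM, quasi-likelihood F-test, Benjamini-Hochberg adjustment over all genes whose counts averaged 37 or more per library, threshold 0.05). IP, TE change and footprints over RNA also needed a fold over 2. The edgeR test gives no standard error, so each SE is the size of the log2 difference divided by the square root of F. RiboDiff, which the study used for TE, was not at hand. Tests were checked on simulated data with 200 changed genes.

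A shared mouse letter marks a shared animal. The differences between mice correlated across genes between their libraries at 0.56 (E and F), 0.24 (A and B) and 0.22 (C and D). The libraries of every pair of mice differed by more than counting error (chi-square per degree of freedom 2.61 to 17.4). Alternatives were DESeq2, other scalings, no count filter, CDS for exon counts, the mouse as a block, no fold limit and leaving out each mouse. Exon reads outside CDS were added after the data had been seen.

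The 10 genes and all lists were chosen with earlier results of these data known. From each further list, the 2 highest and 2 lowest genes in the IP are named. *Eomes* was named after its values were seen. Some results are not reported here. Positions and sequences came from RefSeq (GRCm38.p6), and no protein sequence was used here. Levels were not compared between genes, because no lengths were used.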

Additional observations from a re-analysis of the deposited data

How the results depend on the processing

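In the pull-down, the calls of 8 genes lower and 1 higher held under every alternative run, apart from *Calb2*, which passed without mouse F, and *Erbb4*, which had too few reads outside the CDS to be tested there. The genes higher in the IP numbered 1545, or 4463 with no fold limit, 2493 with CDS counts, 774 with total counts and 738 with reads outside the CDS. Those lower numbered 2888, or 4731 with no fold limit and 1695 outside the CDS. Total counts moved the median enrichment of the 10 genes from -2.11 to -2.50 and their median log2 TE from 0.56 to 0.465. With the mouse as a block, which the pairing of libraries by animal allows, 8 of the 10 genes were still lower in the IP, and genes with a higher TE after AZD-8055 went from 1 to 7.

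After AZD-8055, with no count filter, 30 genes were higher and 48 lower in RNA (7 and 11 otherwise) and 60 and 204 in footprints (5 and 105), with 1 of the 10 genes (*Calb2*) lower in each, and 13 had a higher TE. DESeq2 gave 17 lower in RNA and 11 higher in footprints, and total counts 20 and 14. Without a fold limit 9 genes were higher and 93 lower in TE (1 and 35 otherwise). Leaving out each mouse in turn, which assumes that a lone library varies like those of the other groups, gave 3 to 13 higher and 10 to 29 lower genes in RNA, 2 to 355 and 61 to 482 in footprints (both maxima without mouse C, the shallowest library), and 0 to 4 higher in TE. The 10 genes then had 0 to 1 lower in RNA, and 0 to 1 higher and 0 to 1 lower in footprints.

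For footprints over RNA, 8 of the 10 genes were higher with no fold limit. Of the 11797 genes tested, 4302 were then higher and 4401 lower (1559 and 2079 otherwise), and no filter gave 3146 higher. *Vip* fell under 2-fold with total counts (0.90), no filter (0.96) or without mouse B, and *Gad1* passed it with DESeq2 (1.01), size factors (1.01) or without mouse A or D.

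Signs turned for small drug differences that passed no test. Without a filter *Npy* TE gave -0.004. Over the mice left out, RNA ran from -0.034 to 0.084 for *Sst*, -0.350 to 0.064 for *Pvalb*, -0.174 to 0.179 for *Vip*, -0.019 to 0.131 for *Lhx6* and -0.101 to 0.017 for *Cck*. Footprints ran from -0.249 to 0.117 for *Pvalb* and -0.239 to 0.104 for *Lhx6*, and TE from -0.056 to 0.171 for *Pvalb*, -0.054 to 0.163 for *Npy* and -0.392 to 0.110 for *Lhx6*. The cause was not tested for any of these. Depth limits *Lhx6* in footprints and *Erbb4* in RNA, and 2 mice a group limit every drug comparison.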

Other observations

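Across 6 values per gene (log2 IP over input in mice E and F, log2 TE in mice A, B, C and D), the genes nearest to the mean of *Gad1* and *Gad2* among 9862 genes were *Pcdhga5*, *Reln*, *Trip11*, *Slc4a4* and *Nrip1*, at root mean square distances of 0.178 to 0.202 on the log2 scale, against a median of 1.94 for all genes. *Reln* encodes reelin, a secreted protein made by a class of cortical interneurons, and gave -1.83 and -1.94 in the IP and 1.54, 1.49, 1.501 and 1.42 in TE. *Slc4a4* encodes a bicarbonate cotransporter of astrocytes, so nearness on these values does not sort genes by cell type. The genes nearest to *Cck* were *Fabp3*, *C1qtnf4* and *Psmb5*, at 0.132 to 0.193, against a median of 1.52. Values of one mouse share a library, and these distances are a description.

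Annotated positions (GRCm38.p6) place *Gad1* at chr2:70561303-70602014, *Gad2* at chr2:22621015-22693877, *Calb2* at chr8:110142526-110168212, *Erbb4* at chr1:68031884-69108576 and *Cck* at chr9:121489824-121495694.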
